A study of Mus musculus with 6 samples.

Results

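The nuclear-encoded oxidative phosphorylation genes described here are 40 subunit genes of the mitochondrial respiratory chain and ATP synthase, chosen as a list of named subunit genes, by a rule that uses no measured value, from the 15939 genes listed in 6 transcript catalogues of mouse nucleus accumbens. They are 15 genes named as subunits of complex I, 2 of complex II, 6 of complex III, 10 of complex IV and 7 of complex V. All 40 were found by gene symbol through their Ensembl gene ID, and all 40 were listed in all 6 catalogues. The mice were of the C57BL/6N strain, with no transgene or mutation named, and were put through conditioned place preference, a test in which an animal learns to link a place with an injection. The saline group received saline and the morphine group received morphine, an opioid receptor agonist. Dose, number of injections, age and sex were not given in the sources used here. Each group had 3 libraries, numbered 1, 2 and 3 for saline and 4, 5 and 6 for morphine. The design text gives 6 mice per group without saying which mice went into which library, so tests over libraries measure the spread between libraries.

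Complexes I to IV pass electrons from NADH and succinate to oxygen in the inner mitochondrial membrane, most of which pump protons, and complex V uses the returning protons to make ATP. Most of their subunits are encoded in the nucleus, made in the cytosol and imported, while a small core is encoded by mitochondrial DNA. Neurons depend on this pathway for the ATP that keeps ion gradients and synaptic release going.

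The measure was the number of distinct transcript events that a library's catalogue listed for a gene. An event is a first exon, a last exon, an exon that was assembled both included and skipped, an intron that was assembled both kept and removed, or an exon that was assembled with different ends. A gene assembled as 1 transcript has 2 events, its first and its last exon. Event numbers are not expression levels, and the read depth behind them is unknown. In bulk tissue, fewer cells of a type and less RNA per cell cannot be told apart, and either could bear on which transcripts were assembled.

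Over the whole catalogues, the saline libraries held 54641 to 58007 distinct events and the morphine libraries 56416 to 57981. Of the 16 medium spiny neuron markers looked up, which define the main cell type of this region, 16 were listed in every library, among them the dopamine receptor genes Drd1 and Drd2 and the peptide genes Penk and Pdyn. Their summed events were 69 to 72 in saline and 73 to 83 in morphine, so these sums did not overlap. Foxp2 alone had 6, 7 and 6 events in saline and 17, 10 and 9 in morphine. The log2 ratio of morphine to saline was above 0 in 6 of the markers, below 0 in 6 and 0 in 4. Groups did not overlap in 2 of the 16 (12.5%, Rgs9 and Foxp2), against 3.07% of the 15040 genes tested. The 7 glutamatergic neuron markers summed to 12 to 14 events in saline and 10 to 14 in morphine, and the 8 astrocyte markers to 21 to 22 and 20 to 22. The 8 oligodendrocyte markers summed to 33 to 35 in saline and 32 to 34 in morphine, and the 6 endothelial markers that were listed to 26 to 28 and 25 to 30. In those lists 0 genes had groups that did not overlap. Of 8 microglia markers 1 (Siglech) did not overlap, with sums of 19 to 20 and 20 to 22. Of 8 ependymal and choroid plexus markers 1 (Ccdc39) did not overlap, with sums of 24 to 29 in saline and 20 to 24 in morphine, and 2 (Folr1 and Aqp1) were at 0 in at least 1 library of each group. Of the glutamatergic markers, Neurod2 was at 0 in saline 1, saline 3 and morphine 5 and Neurod1 in morphine 5. The part of cell composition in the results below was not tested.

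Some of the coding stretches that the catalogues list as optional are shown first, because there the assembled messages of a gene differ in the protein they could encode. The first is an exon of Ndufa5, chr6:24522659-24522775 on the minus strand of GRCm38, which was listed as both included and skipped in all 6 libraries. The second is a pair of adjoining exons of Ndufs1, within chr1:63164949-63166367 on the minus strand, listed as skipped together in saline 2, saline 3 and morphine 4. The third is the optional start of an exon of Uqcrh, chr4:116069920-116070024 on the minus strand, listed in 5 of 6 libraries. The last is the exon chr1:36692451-36692550 of Cox5b on the plus strand, listed as skipped in morphine 5 and morphine 6. The stretches of Uqcrh and Cox5b were chosen for display after their values were seen, and an alternative exon end of Ndufb5 listed in saline 3 is not shown. Capitals mark the optional bases and lower case the neighbouring exon sequence, all read 5′ to 3′ from the GENCODE M21 transcripts.
Ndufa5: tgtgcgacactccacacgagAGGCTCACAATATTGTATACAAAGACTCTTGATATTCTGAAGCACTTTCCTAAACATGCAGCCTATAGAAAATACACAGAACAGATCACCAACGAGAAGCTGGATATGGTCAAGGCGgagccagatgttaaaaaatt
Ndufs1: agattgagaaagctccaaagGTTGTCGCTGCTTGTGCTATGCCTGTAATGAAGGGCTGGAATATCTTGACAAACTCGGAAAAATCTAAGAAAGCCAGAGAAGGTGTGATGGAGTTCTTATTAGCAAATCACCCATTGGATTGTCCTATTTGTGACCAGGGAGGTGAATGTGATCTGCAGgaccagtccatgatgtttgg
Uqcrh: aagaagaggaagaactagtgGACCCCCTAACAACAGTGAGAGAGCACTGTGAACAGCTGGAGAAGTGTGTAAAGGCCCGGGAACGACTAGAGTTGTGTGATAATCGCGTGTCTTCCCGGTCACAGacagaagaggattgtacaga
Cox5b: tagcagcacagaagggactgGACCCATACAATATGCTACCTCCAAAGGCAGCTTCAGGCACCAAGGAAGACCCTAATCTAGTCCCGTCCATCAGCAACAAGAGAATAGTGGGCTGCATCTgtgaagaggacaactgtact

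The stretches of Ndufa5, Ndufs1 and Uqcrh keep the reading frame and that of Cox5b does not. The Ndufa5 exon is 117 bases long, and the annotated coding sequence is 116 codons with it and 77 without it. The Ndufs1 pair is 159 bases long, or 53 codons, and its loss would shorten the coding sequence from 727 to 674 codons. The Uqcrh stretch is 105 bases long, or 35 codons, and separates annotated coding sequences of 89 and 54 codons. The Cox5b exon is 100 bases long, and the annotated coding sequence with it is 129 codons. Taking the exon out of that transcript would leave a coding sequence of 105 codons in all, with the frame changed after the junction. The annotated coding transcript that skips this exon has a coding sequence of 292 bases.

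A further optional exon lies at the very end of the coding sequence of Atp5c1, the gamma subunit gene whose product is the rotating central stalk of ATP synthase. It is the 37-base exon chr2:10056770-10056806 on the minus strand, exon 9 of 10 in its transcript, and skipping of this exon is known from muscle. The lines below give the coding end with and without this exon. Capitals mark the bases after the splice junction up to and including the stop codon.
Atp5c1 with the exon: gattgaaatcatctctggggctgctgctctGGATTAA
Atp5c1 without the exon: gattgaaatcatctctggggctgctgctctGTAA

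With the exon, 4 coding bases followed the junction and the coding sequence was 298 codons long. Without it 1 coding base followed and the length was 297 codons. Each of the 6 libraries listed this exon as both included and skipped, so the 2 coding ends were assembled side by side in saline and in morphine.

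In 19 of the 40 genes (47.5%) each library listed 2 events, a first and a last exon, against 18.5% of all 15040 genes tested. The other 21 genes listed more than 2 events in at least 1 library. The same events were listed in all 6 libraries for 18 genes (45.0%), against 16.1% of tested genes. Of the 144 distinct events of the 40 genes, 85 (59.0%) were in all 6 libraries and 32 (22.2%) in 1 library, while over tested genes 21.2% were in all 6 and 50.0% in 1. Annotated boundaries were found for 134 of the 144 events (93.1%), against 65.2% over tested genes. First and last exons needed only a splice site of any annotated exon on that strand, and other classes whole exons. These shares therefore also follow the mix of event classes. Among first exons 69 of 73 were annotated, against 34776 of 41300 over tested genes. For intron retention the counts were 2 of 3 against 1581 of 24972. The 40 genes are short: the median of their largest annotated exon number was 5, against 9 over tested genes, and their median span was 7162.5 bp against 26126.5 bp. The part of exon number and of expression level in these shares was not tested.

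Stable listing was not shared evenly among the complexes or the neighbouring gene groups. It was found in 7 of 10 complex IV genes, 3 of 6 of complex III, 1 of 2 of complex II, 5 of 15 of complex I and 2 of 7 of complex V. Among 45 other genes of the chain and ATP synthase, which are subunit genes but for a few such as the electron carrier gene Cycs and the ATPase inhibitor gene Atpif1, 24 (53.3%) had the same events in every library, and among 17 genes of the tricarboxylic acid cycle and of pyruvate dehydrogenase (Pdha1, Pdhb and Dlat), which feed the chain with electrons, 10 (58.8%) did. Assembly factors, which build the complexes but are not part of them, had 8 of 43 (18.6%), and regulators of mitochondrial gene expression 0 of 13. Cell type marker lists ran from 12.5% (1 of 8 ependymal and choroid plexus markers) to 62.5% (5 of 8 microglia markers). Glutamatergic neuron markers stood at 57.1% (4 of 7), so high shares were not particular to respiratory genes.

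**Figure D1:**
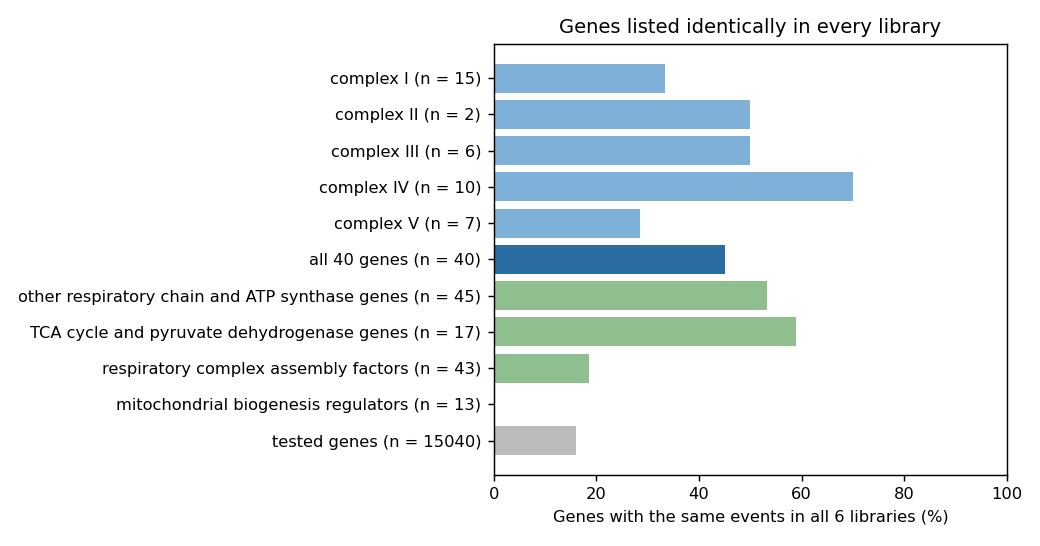
Bars give the percent of genes in each set whose events were the same in all 6 libraries, with the number of genes in brackets and no error bar because each bar is 1 count. The 40 genes stand at 45.0%, complex IV at 70.0%, assembly factors at 18.6% and all tested genes at 16.1%.

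First and last exons made up most of what was listed. First exons were 73 of the 144 events (50.7%), last exons 47 (32.6%), exon skipping 13 (9.03%), alternative exon ends 8 (5.56%) and intron retention 3 (2.08%). Over tested genes intron retention was 19.7% of events and alternative exon ends 13.5%, while exon skipping was 10.6%. A retained intron was listed in 1 of the 40 genes (2.5%), against 32.6% of tested genes. Skipping was listed in 6 of the 40 (15.0%), against 34.2%.

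**Figure D2:**
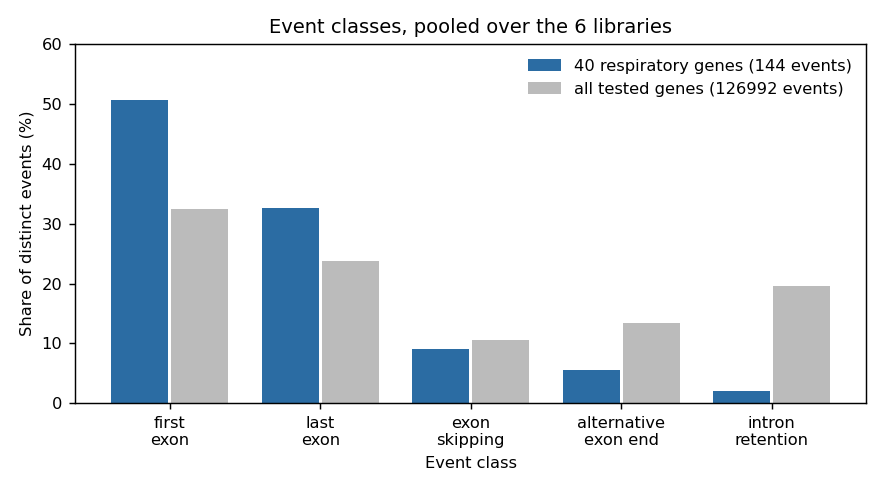
Bars give the share of distinct events, pooled over the 6 libraries, that fell in each of 5 event classes, for the 40 respiratory genes and for all tested genes. First exons were 50.7% of the events of the 40 genes and 32.5% over tested genes, and intron retention was 2.08% and 19.7%.

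Between saline and morphine, the 40 genes together listed 104, 109 and 114 events in the saline libraries and 105, 109 and 104 in the morphine libraries. These ranges overlapped, with 109 ± 5 in saline and 106 ± 2.65 in morphine (SD, n = 3). By limma on log2 events, 0 of the 40 genes passed an adjusted p of 0.05, against 0.638% of tested genes, and the smallest adjusted p was 0.905. At an unadjusted limma p under 0.05 there was 1 gene of 40, where 3.19% of tested genes had such a p. The log2 ratio of morphine to saline was above 0 in 7 genes, below 0 in 10 and 0 in 23, and its median was 0, as over all tested genes. Groups did not overlap in 1 gene of 40 (2.5%), Ndufs1 with saline above, where 3.07% of tested genes did not overlap in either direction, 1.43% with saline above and 1.64% with morphine above. The count of 1 in 40 is near that background. However, 21 of the 40 genes (52.5%) had the same number of events in all 6 libraries, against 22.8% of tested genes. Genes without any variation could not be called or have groups apart, so these counts rest on the other genes alone. Of the 144 events, 0 were listed in all 3 libraries of one group and in none of the other, against 0.665% of all events. Of the events of these genes, libraries of the same group had 81.0% in common on average, and libraries of different groups 80.6%.

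**Figure D3:**
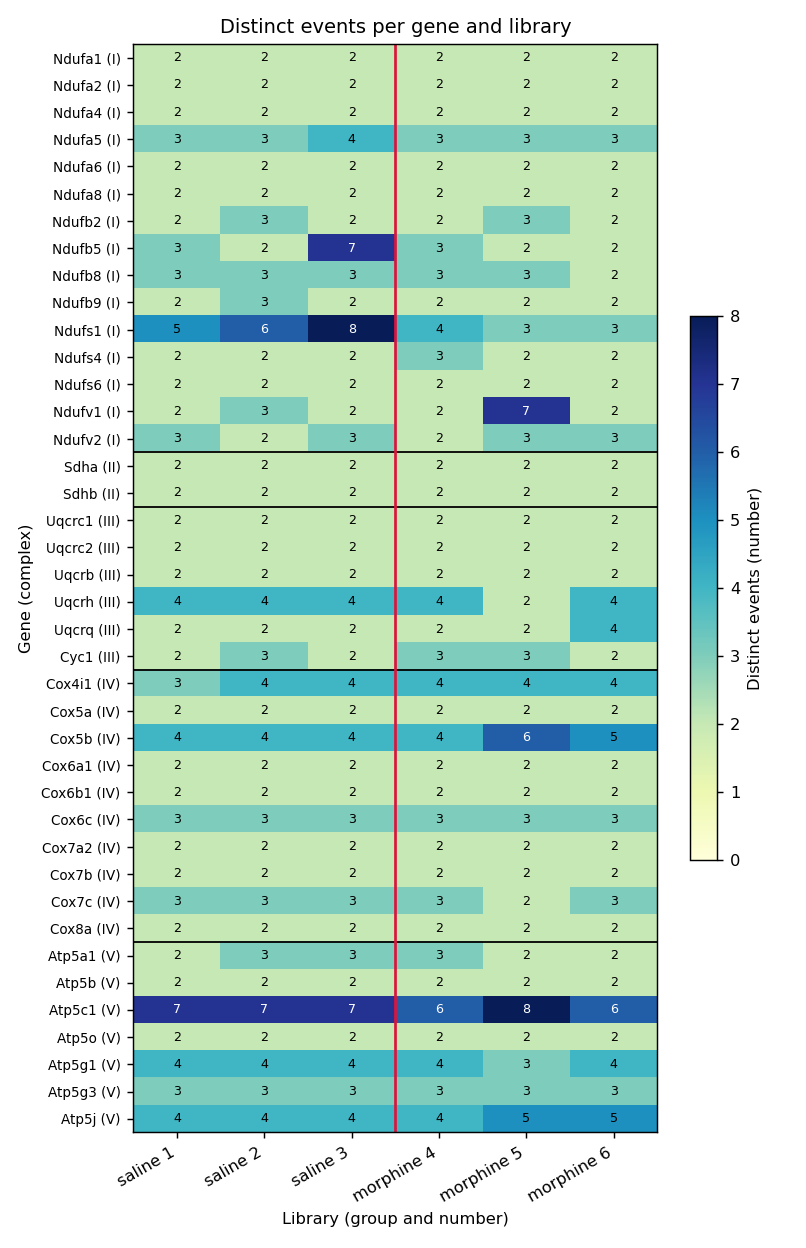
The heat map gives the number of distinct events of each of the 40 genes (rows, complex in brackets) in each of the 6 libraries (columns), with black lines between complexes and a red line between saline and morphine. Most cells hold 2, and Ndufs1 is the 1 row in which each saline value (5, 6 and 8) lies above each morphine value (4, 3 and 3).

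In complex I, which takes electrons from NADH, the 15 genes summed to 37, 39 and 45 events in saline and 36, 40 and 33 in morphine. Ndufa1, Ndufa2, Ndufa4, Ndufa6, Ndufa8 and Ndufs6 had 2 events in each library. Ndufa4, whose protein is now placed with complex IV, changed its first exon without changing its number: the exon ending at the splice site 11907324 of chromosome 6 was listed in 5 libraries, and in morphine 5 one ending at 11907473 stood in its place. With the exon at 11907473 the annotated coding sequence is 246 bases. With that at 11907324 there are 2 annotated lengths, the longer of which is also 246 bases.

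Ndufs1 encodes the large iron-sulfur subunit that carries electrons from the NADH-oxidising tip of complex I. Its libraries listed 5, 6 and 8 events in saline and 4, 3 and 3 in morphine, so the groups did not overlap. The means were 6.33 ± 1.53 and 3.33 ± 0.577 (SD, n = 3), the log2 ratio was -0.82 (SE 0.21), the limma adjusted p was 0.905 and the exact two-sided permutation p was 0.1, the smallest that 3 against 3 allows. Common to all 6 libraries were 3 events: first exons ending at 63176428 and 63176586 of chromosome 1 and the last exon at 63143922. The events beyond these were spread unevenly over the saline libraries. Saline 1 added skipping of the exon chr1:63172154-63172257, which lies before the coding part, under 2 type codes. Saline 3 added skipping of that exon, skipping events at the neighbouring first exons, a first exon at 63176765 and the coding pair shown above. Saline 2 and morphine 4 added the coding pair.

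In saline 2 the difference also rested on 2 first exons on the opposite strand, chr1:63114683-63114960 and chr1:63117720-63122297, beyond the annotated end of Ndufs1 (chr1:63143596-63176833, minus strand). The long non-coding RNA gene Ino80dos lies there on the plus strand and overlaps Ndufs1, and whether the libraries keep the strand is not given in the sources used here. Counting events on the gene's own strand and inside the gene, Ndufs1 had 5, 4 and 8 events in saline and 4, 3 and 3 in morphine, and the groups met at 4. Counted this way 3.18% of tested genes did not overlap, and 0 of the 40 did. The groups also overlapped when each genome interval was counted once, and with first and last exons alone.

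**Figure D4:**
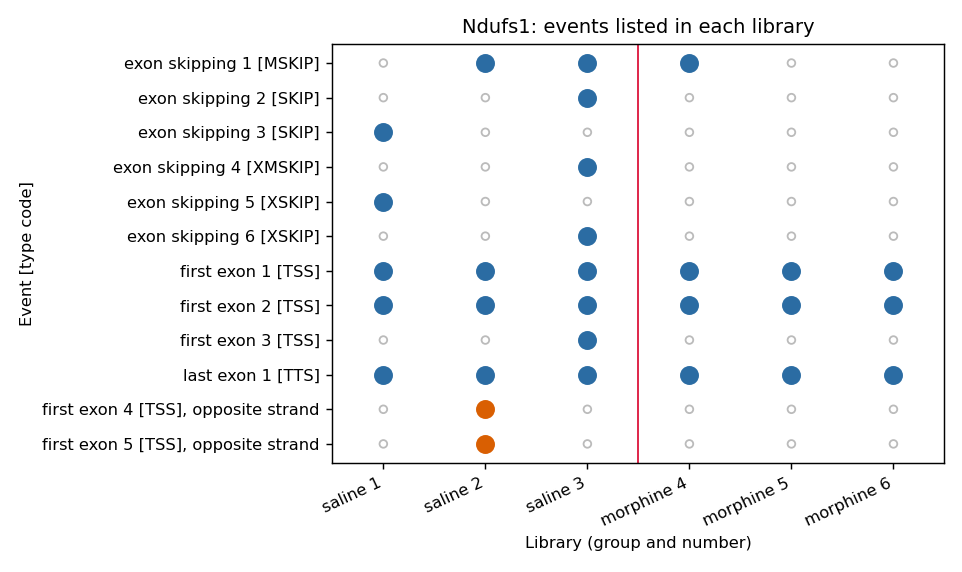
Each row is 1 event of Ndufs1 with its type code, each column a library; a filled circle marks a listed event, an open circle one that was not listed, and orange marks events on the opposite strand. The 3 rows filled throughout are the events in all 6 libraries, and the other 9 rows fall mostly in saline 1, 2 and 3.

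Ndufa5, an accessory subunit of the arm that reaches into the matrix, listed 3, 3 and 4 events in saline and 3 in every library of the morphine group, with overlap. The optional coding exon shown above was in each library. The first exon varied without following the groups. One ending at 24527273 of chromosome 6, which is not annotated as a first exon, was in saline 1, saline 2 and morphine 4. One at 24527526, a first exon of annotated coding transcripts, was in saline 3, morphine 5 and morphine 6. Saline 3 also listed one at 24527460, a first exon of an annotated transcript without a coding sequence. Ndufb5, a subunit of the membrane arm, had 3, 2 and 7 events in saline and 3, 2 and 2 in morphine. Its high value came from saline 3, which listed an exon of 89 or 103 bases under 2 type codes. Without that library the groups had the same range.

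The catalytic flavoprotein gene Ndufv1, whose product binds NADH, had 2, 3 and 2 events in saline and 2, 7 and 2 in morphine. Morphine 5 held 3 retained-intron events and 2 added last exons, at 4009533 and 4010009 of chromosome 19. Of the retained-intron events, 2 were the same interval, chr19:4011272-4011346, under 2 type codes. No other library listed a retained intron in any of the 40 genes. Ndufv2, its partner subunit, had 3, 2 and 3 events in saline and 2, 3 and 3 in morphine. A 69-base exon, chr17:66092658-66092726, made the difference and was listed as skipped in saline 1, saline 3, morphine 5 and morphine 6. That exon is non-coding in its annotated transcript, whose coding sequence is 87 bases. The annotated coding transcript that skips it has a coding sequence of 744 bases.

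The remaining complex I genes overlapped as well. Ndufb8, of the membrane arm, was at 3 events throughout saline and at 3, 3 and 2 in morphine. Its last exon began at 44550220 of chromosome 19 in saline 2 and saline 3 and at 44550412 in saline 1 and the 3 morphine libraries, and these belong to annotated coding sequences of 471 and 558 bases. Ndufb2 had an added first exon in saline 2 and another in morphine 5, and Ndufs4, which is needed for a stable complex, an added last exon beyond the annotated gene in morphine 4. Ndufb9 had an added first exon in saline 2 at chr15:58889229-58889494, the place of the gene Rnf139 upstream.

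Complex II joins the tricarboxylic acid cycle to the chain. Sdha, the succinate-oxidising flavoprotein gene, and Sdhb, the iron-sulfur subunit gene, had 2 events in each of the 6 libraries. For Sdhb the equal numbers hid different listings. Saline 1 listed a first and a last exon on the strand opposite to the gene, chr4:140961192-140961306 and chr4:140960300-140961066, and saline 3 listed the opposite first exon with the gene's own last exon. On its own strand Sdhb had 0, 2 and 1 events in saline and 2 throughout morphine, with overlap at 2. Over the 40 genes, 7 of 144 events (4.86%) lay on the other strand or outside the gene, against 5.57% over tested genes, with 2, 4 and 1 of them in the saline libraries and 1, 0 and 0 in the morphine libraries.

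Complex III passes electrons from ubiquinol to cytochrome c, and its 6 genes summed to 14, 15 and 14 events in saline and 15, 13 and 16 in morphine. Uqcrc1 and Uqcrc2, which encode the core proteins, and Uqcrb had 2 events in each library. Uqcrh, the acidic hinge subunit that contacts cytochrome c1, was at 4 events throughout saline and at 4, 2 and 4 in morphine. In morphine 5 neither form of its exon of 57 or 162 bases was listed as alternative, and the other 5 libraries listed them together. Cyc1, the cytochrome c1 gene, had an added first exon, with its splice site at 76344498 of chromosome 15, in saline 2, morphine 4 and morphine 5. Uqcrq had 2 events in 5 libraries and 4 in morphine 6, where first exons ending at 53430129 and 53430788 of chromosome 11 were added.

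Complex IV, cytochrome c oxidase, hands the electrons to oxygen. Its 10 genes summed to 25, 26 and 26 events in saline and 26, 27 and 27 in morphine, so the sums met at 26. Cox5a, Cox6a1, Cox6b1, Cox7a2, Cox7b and Cox8a had 2 events in each library and Cox6c had 3, of which 2 were first exons, ending at 35937761 and 35938125 of chromosome 15. Both lie before the coding part of the same 228-base coding sequence. Cox4i1, a subunit through which the enzyme is regulated by ATP, had 3, 4 and 4 events in saline and 4 throughout morphine. Its 3 first exons ended at 120668351, 120668355 and 120668375 of chromosome 8, and saline 1 lacked the one at 120668351. Cox7c had 3 events in 5 libraries and 2 in morphine 5, which lacked the first exon at 86046264 of chromosome 13.

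Cox5b, a zinc-binding subunit gene, was at 4 events throughout saline and at 4, 6 and 5 in morphine. Its means were 4 and 5 ± 1 (SD, n = 3), with a log2 ratio of 0.27 (SE 0.15), a limma adjusted p of 0.905 and an exact permutation p of 0.4. The groups overlapped at 4. An exon listed with starts at 36692431 and 36692451 of chromosome 1, and so 120 or 100 bases long, was present in both forms in saline 1, 2 and 3 and morphine 4 and 5. Skipping of the 100-base form was listed in morphine 5 and morphine 6 and in 0 saline libraries. This form is the exon shown above. Morphine 6 also listed first exons ending at 36692046 and 36692284.

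Complex V, the ATP synthase, had sums of 24, 25 and 25 events in saline and 24, 25 and 24 in morphine. Atp5b, the catalytic beta subunit gene, and Atp5o, a gene of the stalk that holds the catalytic head still, had 2 events in each library. Atp5a1, the alpha subunit gene, had 2, 3 and 3 events in saline and 3, 2 and 2 in morphine, and a first exon with its splice site at 77774543 of chromosome 18 was in saline 2, saline 3 and morphine 4.

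Atp5c1 had the highest total of events over the 6 libraries, 41, with 7 throughout saline and 6, 8 and 6 in morphine, with overlap. Besides the optional exon near its coding end it had 6 first exons and 1 last exon. First exons ending at 10079713, 10079904, 10080020 and 10080348 of chromosome 2 were in all 6 libraries. The first exon at 10079620 was in saline 2 and morphine 5 and that at 10079686 in saline 1, saline 3 and morphine 5, so morphine 5 held both and morphine 4 and 6 neither. The log2 ratio was -0.08 (SE 0.13) with a limma adjusted p of 1.

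Atp5g1 and Atp5g3 encode the same mature subunit c, the membrane ring of the enzyme, with different import sequences. Atp5g1 was at 4 events throughout saline and at 4, 3 and 4 in morphine, because morphine 5 lacked 1 of 3 first exons, the one at 96075427 of chromosome 11. Each of these 3 first exons precedes the same 408-base coding sequence. Atp5g3 had 3 events in each library, with first exons ending at 73911242 and 73911252 of chromosome 2 that begin 1 base apart. In morphine 5 its last exon began at 73909377 and in the other 5 libraries at 73908707. Atp5j, which encodes a coupling factor of the stalk, was at 4 events throughout saline and at 4, 5 and 5 in morphine. Its 55-base exon chr16:84833820-84833874 was listed as optional in all 6 libraries, is non-coding and leaves the coding sequence of 324 bases as it is. In morphine 5 and 6 the same exon was listed under 1 further type code. The log2 ratio was 0.19 (SE 0.09), the limma adjusted p 0.905 and the exact permutation p 0.4. With each genome interval counted once, or exact-boundary types alone, the log2 ratio was 0 and the limma adjusted p 1. Without morphine 4 the log2 ratio was 0.29 and the limma adjusted p 0.0103, in a fit in which 270 of 14895 genes (1.81%) passed. The values left, 4 throughout saline and 5 and 5 in morphine, had no spread within either group and differed by the further type code.

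Counted by class, the 40 genes had 54, 61 and 58 first exons in saline and 56, 55 and 56 in morphine, and 40 last exons throughout saline and 41, 42 and 40 in morphine. There were 6, 4 and 8 skipping events in the saline libraries against 4, 7 and 6 in the morphine libraries. For alternative exon ends the saline values were 4, 4 and 8 and the morphine values 4, 2 and 2. Every class overlapped between the groups. Complex I had 4, 2 and 6 skipping events in saline and 2 throughout morphine, which met at 2. Events seen in 1 library alone were found in each library, 3, 6 and 9 for saline against 1, 9 and 4 for morphine.

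RefSeq promoter windows on GRCm38.p6 were matched for 30 of the 40 genes, 33 windows in all, each from 250 bases before the start to 50 bases after it. Respiratory genes are known for promoters without a TATA box and with sites for the factors Nrf1, GABP and YY1. Searched on both strands, the palindromic Nrf1 motif was in 2 windows (6.06%, Cox6a1 and Uqcrc1) against 0.971% of 32851 promoter windows, and CCGGAAG (the core for GABP and its relatives) in 6 (18.2%) against 8.86%. AAGATGGCG (YY1) was in 3 (9.09%, Atp5j, Ndufs4 and Ndufs6) against 1.40%, CCAAT in 15 (45.5%) against 37.4%, CACGTG in 3 (9.09%) against 7.15%, and TATAAA in 0 against 13.6%. These are matches of letters and were not tested. As an example, the last 100 bases before the start of Atp5g3, a smaller stretch than the window searched, chr2:73911327-73911426 on the minus strand, is printed with the CCAAT match in capitals, because both first exons of this gene begin within 1 base of the RefSeq start in all 6 libraries.
Atp5g3 upstream: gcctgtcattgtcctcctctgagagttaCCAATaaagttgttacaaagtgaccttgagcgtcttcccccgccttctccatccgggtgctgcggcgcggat

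Genes around the pathway gave few differences by the same measure. Of the 45 other chain and ATP synthase genes 0 had groups that did not overlap, and of the 17 genes of the tricarboxylic acid cycle and pyruvate dehydrogenase 0, where 3.07% of tested genes did not overlap. By limma 0 genes of either list passed the adjusted threshold, and 0 had an unadjusted p under 0.05. The number of events was the same in all 6 libraries for 27 of the 45 and 12 of the 17, which therefore could not differ. Of 43 tested assembly factors 2 did not overlap, in opposite directions. Ndufaf7, a methyltransferase that acts on a complex I subunit, had 2, 2 and 4 events in saline and 8, 7 and 8 in morphine, a log2 ratio of 1.42 (SE 0.27) with a limma adjusted p of 0.475 and an exact permutation p of 0.1. Ndufaf6, another complex I assembly factor, had 7, 5 and 13 events in saline and 2, 4 and 3 in morphine, a log2 ratio of -1.27 (SE 0.43) with a limma adjusted p of 0.905 and an exact permutation p of 0.1. Among 13 regulators 1 did not overlap. This was Ppargc1a, the coactivator that drives mitochondrial biogenesis, with 9, 8 and 7 events in saline and 5, 6 and 3 in morphine. Its log2 ratio was -0.76 (SE 0.27), its limma adjusted p 0.905 and its exact permutation p 0.1, and on its own strand it had 7, 7 and 6 events against 4, 5 and 2.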

How the data were processed

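RNA from nucleus accumbens was sequenced by the submitters, who deposited 1 catalogue of transcript events per sample. The assembler, event caller and genome build were not given in the sources used here. All positions and type codes were used as deposited. Per the file headers the last column is FPKM, but in the deposited files it holds a score, whole numbers from -24 to 0, and was not used. No expression values were therefore analysed, and read depth is unknown. Of all distinct events, 65.3% had boundaries of exons in GENCODE M21 (GRCm38), which gave symbols, positions and coding sequences.

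Distinct events (gene ID, type, strand and splice pattern, 20 type codes, partner codes ending in OFF left out) were counted per gene and library. The same exon can count under several codes. Log2(events + 0.5) was fitted with limma 3.58.1 in R 4.3.3 (lmFit, eBayes with trend) for the 15040 genes whose mean reached 0.5 events, with Benjamini-Hochberg adjustment over all of them. Log2 ratios are on that scale. Each gene also had an exact two-sided permutation test (scipy 1.17.1), whose smallest p is 0.1. The limma script was tested on simulated counts, with changes put only in genes with larger event numbers. That run did not measure power for most of the 40 genes, whose median was 2.17 events per library.

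Values per library were given for genes whose groups did not overlap, the 10 with most events and those with a skipping event in at least 3 libraries; other values were given after they were seen. The genes and lists were chosen with earlier results of these data known. Alternatives changed the pseudocount, filter, scaling, variance model, event types and libraries, and 2 of them, own-strand events and merged intervals, were chosen after seeing the data.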

Additional observations from a re-analysis of the deposited data

How the results depend on the processing

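Of 15040 tested genes 96 (0.638%) passed the limma threshold. There were 44 with robust eBayes, 42 of 5930 genes (0.708%) without first and last exons, and 250 to 285 (1.69% to 1.91%) when 1 library was left out. Of the 40 respiratory genes 0 passed, except Atp5j without morphine 4. The number of the 40 whose groups did not overlap was 1 (Ndufs1), and 0 with first and last exons alone, without first and last exons, with exact-boundary types alone, with own-strand events inside the gene, and with each genome interval counted once. Leaving out 1 library gave 1 to 3: Ndufs1, Cox5b and Atp5j without morphine 4, and Ndufs1 and Atp5c1 without morphine 5. At that size 6.51% to 7.4% of all tested genes did not overlap. The summed events of the 40 genes differed by -3 (morphine minus saline), within the saline SD of 5. The difference was below 0 under each of 15 alternatives, from -5.5 without saline 1 to -0.5 without saline 3. The alternatives count the same libraries again, so their shared sign is not separate evidence of a decrease. No paired analysis was possible because the saline and morphine samples share no replicate number. The cause of these changes was not tested. Depth is unknown, so an event that is not listed may have been present.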
